A study of Rattus norvegicus with 24 samples.

Results

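The 10 genes described here encode the main enzymes that remove superoxide and peroxides in the lung, together with the thioredoxin that serves them. They are Sod1, Sod2 and Sod3 (superoxide dismutases), Cat (catalase), Gpx1, Gpx2 and Gpx3 (glutathione peroxidases), Prdx1 and Prdx6 (peroxiredoxins) and Txn1 (thioredoxin). They were chosen by name: a probe belonged to the set when the accession given for it on the array mapped to 1 of these symbols. No measured value entered this rule, but earlier results of these data were known when the genes were chosen. The 10 genes were represented by 11 of 30367 probes, Gpx2 by a pair and each of the others by a single probe, and they made up 10 of the 21255 genes and unnamed probes that were tested.

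Lung RNA was measured in 24 Fischer-344 rats on one-colour Agilent arrays, on which each sample is labeled with the dye Cy3 and hybridized alone. Rats of both sexes, 7 to 8 weeks old by the labels, inhaled hexanal, an aldehyde formed when fatty acids are oxidized, at 600 ppm (low dose), 1000 ppm (middle dose) or 1500 ppm (high dose), for 4 h a day on 5 days a week. The control group inhaled filtered clean air. Each group held 6 rats, 3 males and 3 females, and the labels name no genetic change in any group. None of 6 sex-linked symbols looked for (Xist, Ddx3y and others) was named on the array, so the sex labels could not be checked with them. The labels and the study's methods differ on 2 points: the treatment protocol in the labels gives 5 weeks of exposure and concentrations in mg/m3, whereas the group names and the methods use ppm and the methods give a duration of 4 weeks. The ppm values are used here as names of the groups. The comparison asks whether antioxidant enzyme transcripts differed between exposed and control lungs.

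Superoxide is converted to hydrogen peroxide by the dismutases, Sod1 in the cytosol, Sod2 in mitochondria and Sod3 outside the cell. Hydrogen peroxide is then broken down by catalase in peroxisomes, by glutathione peroxidases at the expense of glutathione, and by peroxiredoxins, of which the 2-Cys forms are reduced again by thioredoxin. Many of these genes are known targets of the transcription factor NRF2, which binds antioxidant response elements in promoters and is released from its inhibitor KEAP1 by reactive aldehydes and other electrophiles.

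The core of the antioxidant response element is TGACNNNGC, where N is any base. It was searched on both strands in the promoter windows of RefSeq on rat build GRCr8. The windows ran from 250 bases before to 50 bases after each gene's start. Windows were given for 8 of the 10 genes, and none for Sod3 and Prdx6. The core was present in 3 of the 8 windows and in 4038 of all 33469 windows (12.1%). All 3 matches lay on the reverse strand, so that they read GCNNNGTCA in the direction of the gene. The matches are shown in the direction of transcription with up to 25 bases on either side, cut at the gene's start, and the capitals mark the core. The Sod2 sequence is the reverse strand of chr1:50050170-50050228, the Gpx2 sequence the reverse strand of chr6:101230034-101230071, and the Prdx1 sequence the forward strand of chr5:135383746-135383804.
Sod2: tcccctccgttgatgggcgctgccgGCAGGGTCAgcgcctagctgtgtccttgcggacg
Gpx2: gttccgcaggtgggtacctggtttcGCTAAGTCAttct
Prdx1: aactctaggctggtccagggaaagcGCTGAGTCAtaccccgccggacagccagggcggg
The core began 35 bases before the start of Sod2, 13 bases before that of Gpx2 and 135 bases before that of Prdx1. A match is a description of the letters in the window and shows no binding. No match was found in the windows of Sod1, Cat, Gpx1, Gpx3 and Txn1. Sequence outside the windows was not searched, so this does not show that these genes lack such a site.

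Every one of the 11 probes was well above background on all 24 arrays and none was saturated, so all 10 genes passed the filter on dim probes and had a measured level in every rat. The 75th percentile of the processed signal ranged from 1700.8 to 3132.71 over the arrays, and between 70.7% and 81.83% of probes were well above background. The arrays lay on 6 slides of 4, each slide held rats of 1 sex, and the control rats shared slides with rats of the low dose only. All 6 markers of alveolar type II cells on the array (Sftpc, Sftpb and others) were well above background on all 24 arrays. So were 5 of 7 markers of heart muscle, whose summed log2 level ran from 1.62 to 6.99 and had its highest median in the middle-dose group (1000 ppm; 3 of 6 tested markers higher by at least 1.5-fold at an unadjusted limma p-value under 0.05). By the same thresholds 2 of 5 club and airway secretory and 2 of 4 skeletal muscle markers were higher at 1000 ppm. So was 1 marker each of the ciliated, neutrophil, macrophage, smooth muscle and adipocyte lists. Levels below are log2 processed signals minus the log2 of the 75th percentile of the same array, so that 0 is a probe as bright as that percentile. They are compared between rats for 1 probe at a time and not between probes.

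No antioxidant enzyme passed the test against control at any dose. A gene was called when it changed by at least 1.5-fold with an unadjusted limma p-value under 0.05, the thresholds of the study's methods. By this rule 0 of the 10 genes were called at 600, 1000 or 1500 ppm, where 0.616%, 1.63% and 1.22% of all genes were called. At an unadjusted limma p-value under 0.05 alone, 0 of the 10 genes passed at any dose, against 4.35%, 8.98% and 6.96% of all genes. With the Benjamini-Hochberg adjusted p-value under 0.05, 0 of the 10 passed, against 0%, 0.0188% and 0.0047% of all genes. The smallest adjusted limma p-value among the 30 differences was 0.71.

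The differences were small in both directions. At 600 ppm, 8 of the 10 genes were above control, at 1000 ppm 8 and at 1500 ppm 6, where 49.6%, 51.2% and 53.8% of all genes were above control. The median log2 difference of the 10 genes was 0.08, 0.07 and 0.02 in the order of dose, and that of all genes was -0.001, 0.005 and 0.013. The 95% confidence interval lay within 1.5-fold in either direction for 29 of the 30 differences, and the exception was Gpx3 at 600 ppm, whose interval reached a gain of 55.6%. The widest loss that an interval allowed was 33.0%, for Cat at 1000 ppm. Differences within these bounds were not resolved with 6 rats a group, and a p-value above the threshold does not show that the groups were alike. The intervals make no allowance for the slide or for sex, and no control rat shared a slide with a 1000 or 1500 ppm rat. With the slide as a fixed block the SE of Gpx2 at 1500 ppm was 0.298, against 0.122 without it. Larger changes at these doses are therefore not excluded. Whole lung was measured, so fewer cells of a type and less RNA per cell cannot be told apart.

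**Figure D1:**
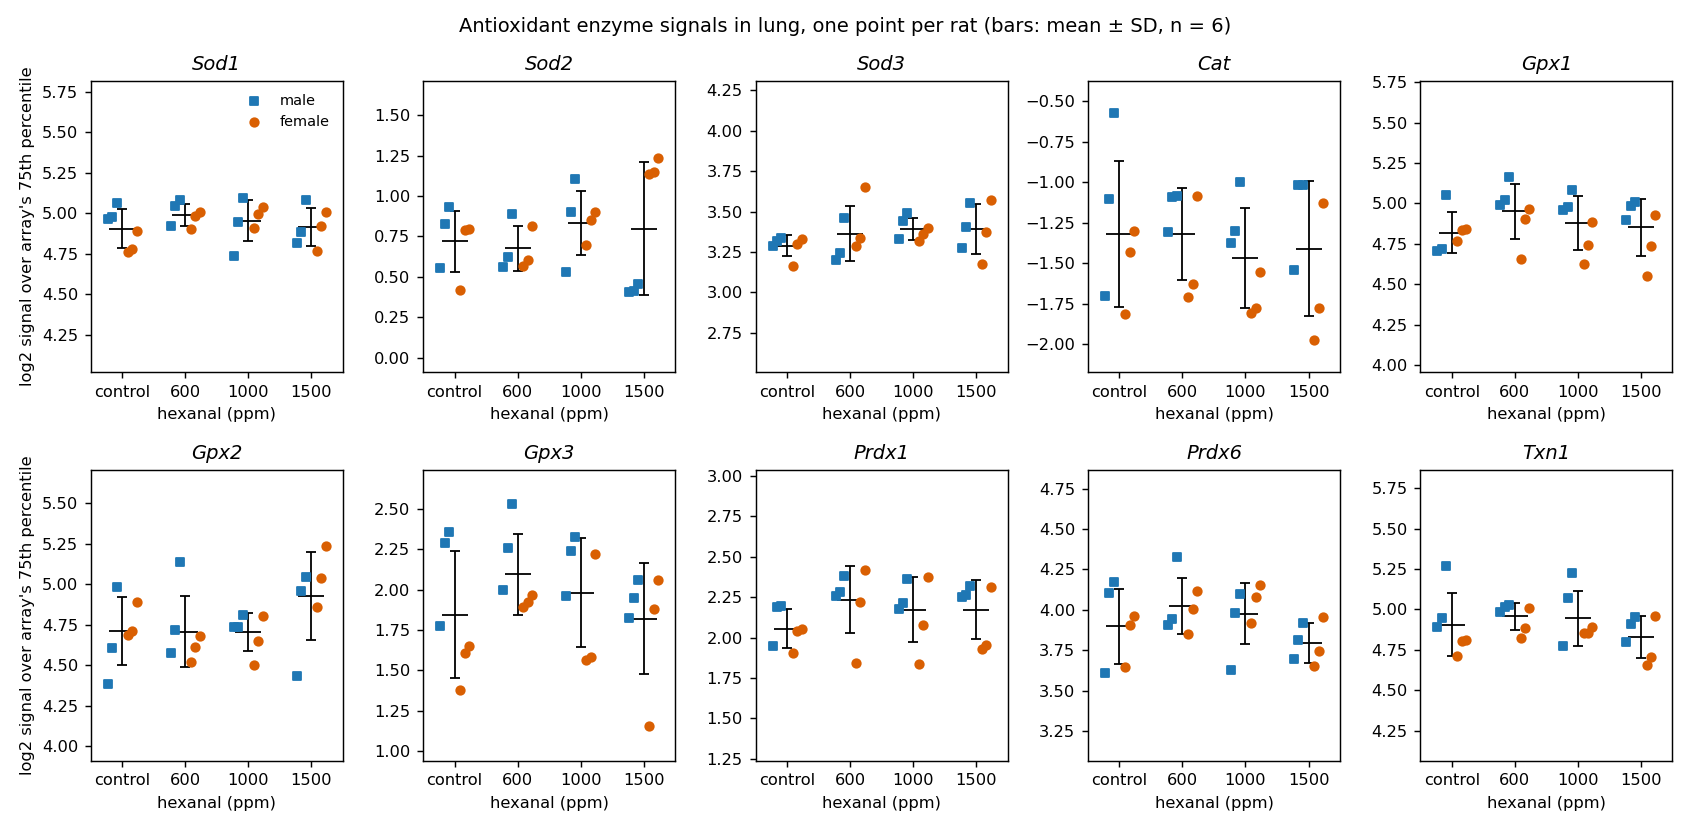
Log2 signal relative to the array's 75th percentile (vertical axis, the same span of 1.8 in every panel) for each gene in each rat, by hexanal dose in ppm (horizontal axis). Squares are males, circles are females, and black bars are the mean ± SD of 6 rats. The groups overlap in every panel, and the 3 males and 3 females of the 1500 ppm group separate for Sod2.

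Sod1, the cytosolic copper-zinc dismutase (probe A_64_P047367, NM_017050), varied least. Its log2 signal was 4.76 to 5.07 in the control rats (median 4.93), 4.90 to 5.08 at 600 ppm (median 5.00), 4.74 to 5.097 at 1000 ppm (median 4.97) and 4.77 to 5.09 at 1500 ppm (median 4.90). The 4 groups overlapped almost entirely, and their means lay within 0.08 of each other. The largest difference was 0.08 ± 0.07 (SE) at 600 ppm, with an adjusted limma p-value of 0.997. The SD of Sod1 within groups was 0.11, and the median over all genes tested was 0.23.

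Sod2, the mitochondrial manganese dismutase (A_64_P110103, NM_017051), had values of 0.42 to 0.93 in controls (median 0.79), 0.56 to 0.89 at 600 ppm (median 0.61), 0.53 to 1.104 at 1000 ppm (median 0.88) and 0.41 to 1.23 at 1500 ppm (median 0.80). The high-dose group had the widest spread (SD 0.41, against 0.19 in controls), since 3 of its rats lay above every control rat and 2 lay below every control rat. The mean differences were -0.04 ± 0.15, 0.11 ± 0.15 and 0.08 ± 0.15 (SE) in the order of dose. The 2 directions within the high-dose group followed sex and are described below.

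Sod3, the secreted dismutase of the lung's extracellular matrix (A_43_P11601, NM_012880), had the tightest controls, at 3.16 to 3.34 (median 3.31). It was 3.20 to 3.65 at 600 ppm (median 3.31), 3.32 to 3.49 at 1000 ppm (median 3.38) and 3.17 to 3.57 at 1500 ppm (median 3.39). At 1000 ppm 4 of 6 rats lay above every control rat, and at 1500 ppm also 4. The difference at 1000 ppm was 0.10 ± 0.08 (SE), a gain of 7.3%, with an adjusted limma p-value of 0.71. The exact two-sided permutation test of 6 rats against 6 gave an unadjusted p = 0.013 for it, the only 1 of 30 such tests under 0.05. The smallest p this design allows is 0.00216 in the exact test.

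Cat, which breaks down hydrogen peroxide in peroxisomes (A_44_P362954, NM_012520), varied most, with an SD within groups of 0.37 (76th percentile of all genes). Its log2 signal was -1.82 to -0.57 in controls (median -1.37), -1.71 to -1.08 at 600 ppm (median -1.20), -1.81 to -0.998 at 1000 ppm (median -1.47) and -1.98 to -1.02 at 1500 ppm (median -1.33). All 4 groups overlapped. The differences were 0.00, -0.15 and -0.09, each with an SE of 0.21.

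Gpx1, the widely expressed intracellular glutathione peroxidase (A_42_P805300, NM_030826, printed on the array 10 times), was 4.71 to 5.05 in controls (median 4.80), 4.66 to 5.16 at 600 ppm (median 4.98), 4.62 to 5.08 at 1000 ppm (median 4.92) and 4.55 to 5.01 at 1500 ppm (median 4.91). The 3 exposed groups had higher medians than the controls and overlapped with the control range. The differences were 0.13, 0.06 and 0.03, each with an SE of 0.09.

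Gpx2, the glutathione peroxidase of epithelia and an NRF2 target (A_64_P051430, NM_183403), was 4.38 to 4.98 in controls (median 4.70), 4.52 to 5.14 at 600 ppm (median 4.65), 4.50 to 4.81 at 1000 ppm (median 4.74) and 4.43 to 5.23 at 1500 ppm (median 5.00). At 1500 ppm 3 of 6 rats lay above every control rat and the rest within the control range. The difference there was 0.22 ± 0.12 (SE), 1.16-fold, with an adjusted limma p-value of 0.755 and an exact two-sided permutation p = 0.154. It was the smallest unadjusted limma p-value of the 30 differences (0.0856). Over the 24 fits without 1 rat the difference ran from 0.15 to 0.32, with adjusted limma p-values of 0.553 to 0.96. The largest was without high-dose rat 18, the lowest of its group, with an unadjusted limma p-value of 0.00837 and an adjusted one of 0.553. The smallest was without control rat 2, with an unadjusted limma p-value of 0.221. A second Gpx2 probe (A_64_P059565) gave 0.11 at 1500 ppm ± 0.14 (SE), in the same direction and smaller.

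Gpx3, the secreted glutathione peroxidase found in plasma (A_44_P500949, NM_022525), was 1.38 to 2.36 in controls (median 1.72), 1.89 to 2.53 at 600 ppm (median 1.98), 1.57 to 2.33 at 1000 ppm (median 2.09) and 1.15 to 2.06 at 1500 ppm (median 1.91). It gave the largest mean difference of the set, 0.25 ± 0.19 (SE) at 600 ppm, 1.19-fold, with an adjusted limma p-value of 0.997. At that dose 1 rat lay above every control rat. The difference was 0.14 at 1000 ppm and -0.02 at 1500 ppm, so it did not grow with dose.

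Prdx1, a 2-Cys peroxiredoxin of the cytosol and an NRF2 target (A_44_P398167, NM_057114), was 1.90 to 2.19 in controls (median 2.05), 1.84 to 2.42 at 600 ppm (median 2.27), 1.84 to 2.37 at 1000 ppm (median 2.20) and 1.93 to 2.32 at 1500 ppm (median 2.26). At 600 ppm 5 of 6 rats lay above every control rat and rat 26 lay below every control rat. The difference at 600 ppm was 0.18 ± 0.10 (SE), 1.13-fold, with an adjusted limma p-value of 0.997 and an exact two-sided permutation p = 0.0952. At 1000 and 1500 ppm the difference was 0.12 at each dose. Within the slide that held control and low-dose males the difference was 0.27, and within the slide that held control and low-dose females it was -0.16, each resting on 1 exposed rat.

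Prdx6, the 1-Cys peroxiredoxin that also has phospholipase activity and acts on lung surfactant lipids (A_44_P1057763, NM_053576), was 3.61 to 4.17 in controls (median 3.93), 3.85 to 4.32 at 600 ppm (median 3.97), 3.63 to 4.15 at 1000 ppm (median 4.03) and 3.65 to 3.95 at 1500 ppm (median 3.78). High-dose rats all lay within the control range. The differences were 0.13, 0.08 and -0.10, each with an SE of 0.11. Txn1, the cytosolic thioredoxin that reduces 2-Cys peroxiredoxins (A_42_P689013, NM_053800), was 4.71 to 5.27 in controls (median 4.85), 4.82 to 5.03 at 600 ppm (median 5.00), 4.77 to 5.22 at 1000 ppm (median 4.87) and 4.66 to 4.96 at 1500 ppm (median 4.85). At 1500 ppm 2 of 6 rats lay below every control rat. The differences for Txn1 were 0.05, 0.04 and -0.07, each with an SE of 0.09.

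**Figure D2:**
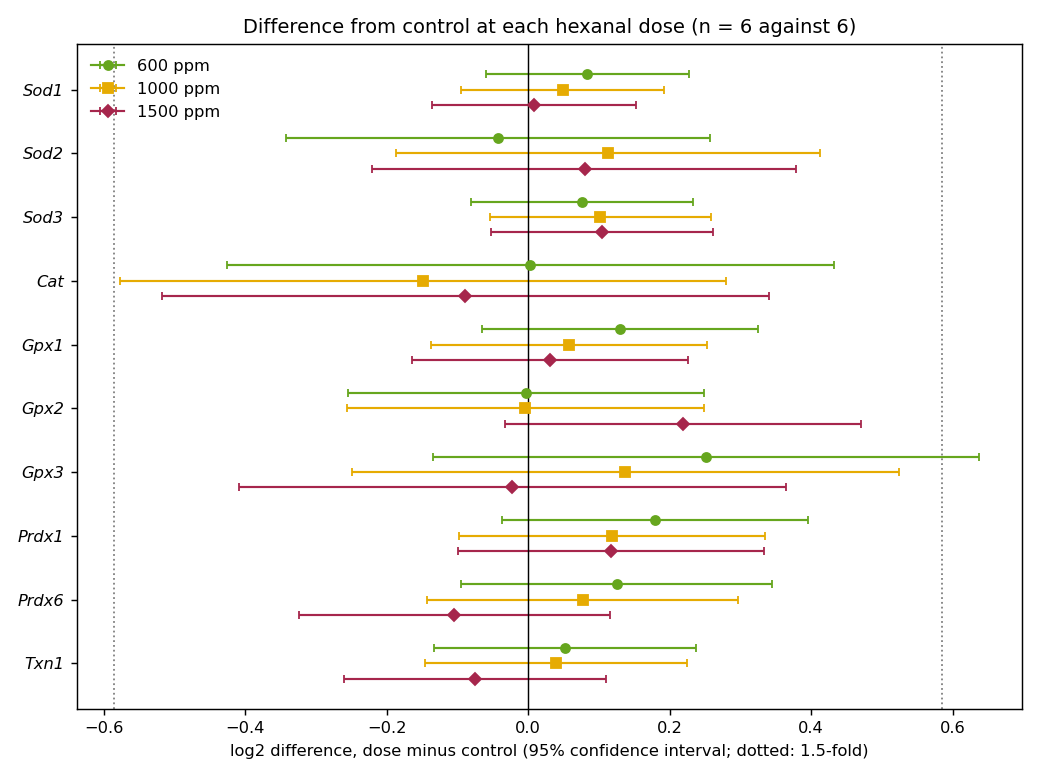
Log2 difference from control (horizontal axis) for each gene at 600, 1000 and 1500 ppm, as circles, squares and diamonds with 95% confidence intervals from limma; dotted lines mark a 1.5-fold change. All 30 intervals cross 0, and only the one of Gpx3 at 600 ppm passes a dotted line.

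The 4 group means stood in the order of dose for Sod3 alone, and its slope on dose did not pass the test. The 600 ppm group had the highest mean for 7 of the 10 genes, and the control group had the highest mean for 0, while among all genes tested the 600 ppm group was highest for 19.9% and the control group for 25.3%. The control group had the lowest mean for 4 of the 10 genes (Sod1, Sod3, Gpx1 and Prdx1), against 28.2% of all genes. The distance between the highest and lowest mean ran from 0.08 for Sod1 to 0.27 for Gpx3, and for all 10 genes it was smaller than the largest SD of a group. The 3 dose comparisons share the same control rats, so they are not independent. A slope on dose was significant for 0 of the 10 genes at an adjusted limma p-value under 0.05 (0.0141% of all genes) and for 0 at an unadjusted p-value under 0.05 (8.49% of all genes). The steepest slope was that of Gpx2, 0.13 ± 0.08 (SE) per 1000 ppm, with an adjusted limma p-value of 0.669.

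Among the other genes of the antioxidant pathways none was called at any dose. The list of other peroxidases (Gpx4, Prdx2, Prdx3, Prdx5 and others) had 0 of 9 tested genes called, the thioredoxin and glutaredoxin system 0 of 9, glutathione synthesis and reduction 0 of 8, NRF2 and its classical targets such as Nqo1 and Hmox1 0 of 9, and the oxidant-producing enzymes 0 of 9. The median log2 difference of NRF2 and its targets was -0.05, -0.05 and -0.03 in the order of dose. That of glutathione synthesis and reduction was -0.01, 0.06 and 0.07, that of the other peroxidases 0.07, 0.05 and -0.003, that of the thioredoxin and glutaredoxin system -0.02, 0.05 and -0.05, and that of the oxidant-producing enzymes -0.08, -0.04 and -0.04. At an unadjusted limma p-value under 0.05, 1 peroxidase (Gpx6) was higher at 1000 ppm and at 1500 ppm, and in the glutathione list Ggt1 was higher at 1000 ppm and Gclm at 1500 ppm. These 3 genes, named after their values were seen, had adjusted limma p-values of 0.515 or more.

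The change from control differed between males and females for Sod2 at 1500 ppm. The 3 high-dose males had log2 signals of 0.41, 0.41 and 0.46, and the 3 high-dose females had 1.13, 1.15 and 1.23. Every high-dose male lay below all 3 control males (0.56, 0.83 and 0.93), and every high-dose female lay above all 3 control females (0.42, 0.79 and 0.79). The change was -0.35 ± 0.14 (SE) in males, with an adjusted limma p-value of 0.203. It was 0.50 ± 0.14 in females, with an adjusted limma p-value of 0.0745. The difference between the changes, female minus male, was 0.85 ± 0.20 (SE), with an adjusted limma p-value of 0.0172 over all genes. This was 1 of the 10 genes, where 5.01% of all genes passed the same test and 20.1% had an unadjusted p-value under 0.05. A count of 1 in 10 is close to those shares. In the other groups Sod2 did not separate by sex: the female mean minus the male mean was -0.10 in controls, -0.03 at 600 ppm and -0.03 at 1000 ppm, against 0.75 at 1500 ppm.

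The Sod2 difference passed the threshold under 7 of 12 alternative settings and in 23 of 24 fits without 1 rat. It kept its sign in all of them, with a size of 0.68 to 1.22 and an adjusted limma p-value of 0.00421 to 0.198 over the settings. Fits without a 600 or 1000 ppm rat could not move the size (0.849), since only control and high-dose rats enter it. The other filters and the mean of a gene's probes could not move it either, since Sod2 had a single probe. The adjusted limma p-value was 0.0998 with another background correction, 0.198 on the deposited values without scaling, 0.193 and 0.0586 with the slide as a fixed and a random block, and 0.0507 without control rat 23. High-dose males and females lay on different slides, each with a single middle-dose rat of the same sex. Within its slide the mean of the 3 high-dose males was 0.48 below that of middle-dose rat 13 on the log2 scale, whose value was 0.90. The mean of the 3 high-dose females was 0.47 above that of middle-dose rat 33, whose value was 0.70.

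Heart muscle markers varied widely between these rats. The female change minus the male change at 1500 ppm was above 0 for all 6 tested markers, as for Sod2. It ran from 1.56 for Actc1 to 9.98 for Myh6, with a median of 3.96, against -0.01 for all genes. Other marker lists had medians above 0 too: adipocyte 0.96, ciliated 0.70, club and airway secretory 0.45, smooth muscle 0.39, fibroblast 0.08 and macrophage 0.04. Medians were below 0 for endothelial (-0.26), neutrophil (-0.22), alveolar type I (-0.19), alveolar type II (-0.14), erythroid (-0.02) and skeletal muscle (-0.02) markers. None of the 6 heart muscle markers passed the test of this difference (lowest adjusted limma p-value 0.211, for Myl7, with an unadjusted one of 0.0366). The summed log2 level of 6 markers was 1.65, 1.89 and 4.49 in the high-dose males and 2.09, 6.25 and 6.99 in the high-dose females, against medians of 4.46 in control males and 2.48 in control females. High-dose female rats 36, 37 and 38 had 6.25, 6.99 and 2.09 for these markers, and 1.23, 1.15 and 1.13 for Sod2. High-dose male rats 16, 17 and 18 had 1.89, 4.49 and 1.65 for the markers, and 0.46, 0.41 and 0.41 for Sod2. With the summed markers as a covariate, chosen after the values were seen, the Sod2 difference was 0.78 ± 0.22 (SE), with an adjusted limma p-value of 0.0549. The part of heart tissue in the Sod2 values was not tested further.

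**Figure D3:**
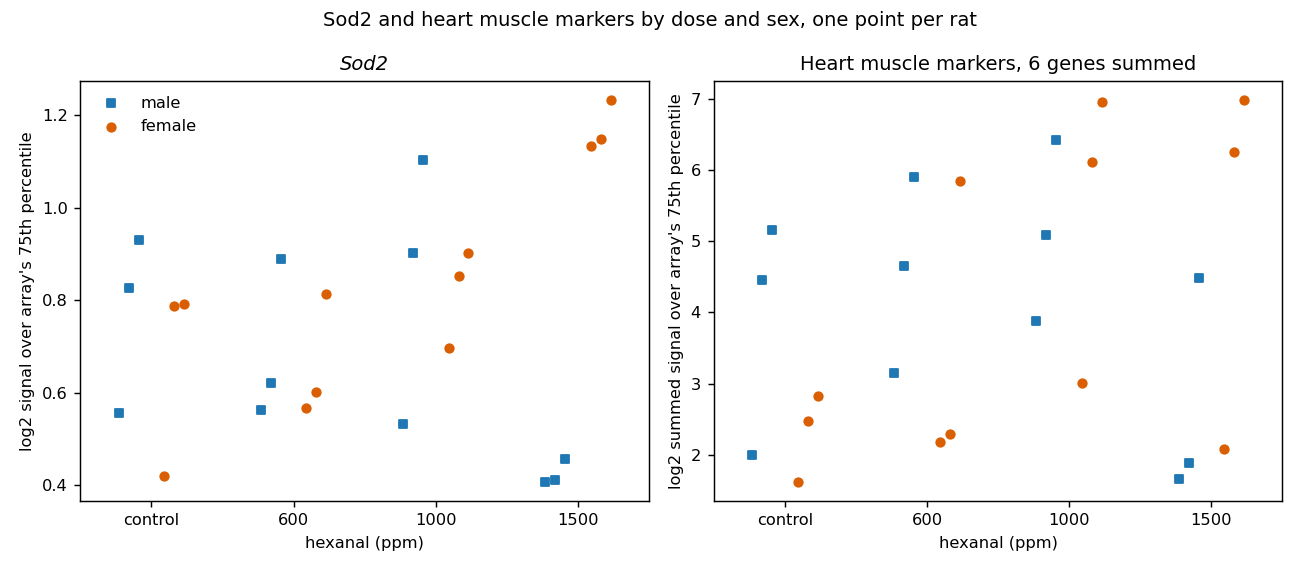
Left, Sod2 log2 signal of each rat by hexanal dose in ppm, males as squares and females as circles. Right, the summed log2 level of 6 heart muscle markers in the same rats. At 1500 ppm the males lie between 0.41 and 0.46 and the females between 1.13 and 1.23 for Sod2. The marker levels there are 1.65 to 4.49 in males (median 1.89) and 2.09 to 6.99 in females (median 6.25).

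For the other members the dose effect was not shown to differ between the sexes. At 600 and 1000 ppm 0 of the 10 genes passed at an adjusted limma p-value under 0.05 (0% of all genes at both doses). At an unadjusted p-value under 0.05 also 0 passed, against 5% of all genes at 600 ppm and 9.43% at 1000 ppm. At 1500 ppm the 9 genes other than Sod2 had adjusted limma p-values of 0.477 or more. In the related lists Gclm, a subunit of the enzyme that starts glutathione synthesis, had a difference of -1.37 ± 0.32 (SE) at 1500 ppm, with an adjusted limma p-value of 0.0192. Its mean was -6.28 in control males and -5.14 in high-dose males, and -5.54 in control females and -5.77 in high-dose females. The mean of control females rested on 2 rats, because the value of the third was missing from the fit. Gclm was the only gene of these lists that passed, where 5.01% of all genes passed the same test, and it was named after its values were seen. Its signal was dim, with a mean of -5.14 or lower in every dose and sex group. It was well above background in the 2 control females that had a value, but in only 2 of 3 males at 600 ppm. Whether the Gclm difference held under the alternative settings was not tested.

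Irrespective of dose, 4 of the 10 genes were lower in females than in males at an adjusted limma p-value under 0.05 and 0 were higher. Of all genes 9.33% were lower in females by this test, and 24.9% differed in either direction. At an unadjusted p-value under 0.05 it was 5 of the 10, against 15% of all genes lower in females and 37.6% in either direction. All of these were lower in females, and 8 of the 10 genes lay below 0 for the female minus male difference, against 44.6% of all genes. With 10 genes nothing further is read from the gap between these shares.

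Gpx3 was 1.78 to 2.53 in the 12 males (median 2.15) and 1.15 to 2.22 in the 12 females (median 1.77). The sexes overlapped, but the female mean was lower in each of the 4 dose groups, by 0.25 to 0.59. The difference was -0.39 ± 0.11 (SE), 0.764-fold, with an adjusted limma p-value of 0.0101. Cat was -1.70 to -0.57 in males (median -1.09) and -1.98 to -1.08 in females (median -1.67). It was lower in females in all 4 dose groups, and the difference was -0.41 ± 0.12 (SE), 0.754-fold, with an adjusted limma p-value of 0.0178.

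Gpx1 was 4.71 to 5.16 in males (median 4.99) and 4.55 to 4.97 in females (median 4.80). Its sex difference was -0.18 ± 0.06 (SE), 0.885-fold, with an adjusted limma p-value of 0.0246. In the control group it was only -0.01, against -0.22 to -0.26 in the 3 exposed groups. The test of whether males and females responded differently did not pass for Gpx1 at any dose. Txn1 was 4.77 to 5.27 in males (median 4.97) and 4.66 to 5.01 in females (median 4.84). Its difference was -0.16 ± 0.05 (SE), 0.896-fold, with an adjusted limma p-value of 0.0358. Prdx1, the fifth gene at an unadjusted p-value under 0.05, differed by -0.16 ± 0.07 (SE), with an adjusted limma p-value of 0.0891.

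Slides were nested in sex, so a slide effect and a sex effect cannot be told apart by a fixed block. The means of the 3 female slides lay below those of all 3 male slides for Cat, Gpx1, Gpx3 and Prdx1, and overlapped with them for Txn1. With the slide as a random block the adjusted limma p-value was 0.0481 for Gpx3, 0.0772 for Cat, 0.0832 for Gpx1 and 0.112 for Txn1. The Txn1 call was the least stable: it was lost in 10 of the 24 fits that left out 1 rat, with an adjusted limma p-value of up to 0.0648, while Cat, Gpx1 and Gpx3 kept theirs in all 24. Txn1 also lost it with quantile normalization (adjusted limma p-value 0.0935) and with normexp background correction (0.152), and Cat lost it with normexp (-0.30, adjusted limma p-value 0.116). Over all settings run, the adjusted limma p-values ran up to 0.152 for Txn1, 0.116 for Cat, 0.0832 for Gpx1 and 0.0481 for Gpx3. The rats whose omission ended the Txn1 call were 3, 22 and 23 of the control group, 27 of the low dose, 11, 12 and 31 of the middle dose, and 18, 36 and 37 of the high dose.

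Sod1, Sod2, Sod3, Gpx2 and Prdx6 did not pass for sex, with differences between -0.05 for Sod1 and 0.15 for Sod2, and the largest bound of their intervals was 0.35, for Sod2. Markers of several cell types differed between the sexes as well. Lower in females were 2 of 5 erythroid (Alas2 and Slc4a1), 2 of 5 macrophage (Cd68 and Mrc1), 2 of 4 alveolar type I, 3 of 6 alveolar type II, 2 of 5 endothelial, 1 of 3 neutrophil and 1 of 5 fibroblast markers, at an adjusted limma p-value under 0.05. Higher in females by the same test were 1 of 5 club and airway secretory markers (Scgb3a2, by 0.35), 1 of 5 smooth muscle markers (Acta2, by 0.25) and 1 of 5 fibroblast markers (Pdgfra, by 0.24). The summed log2 level of the erythroid markers was 8.03 to 8.50 in males (median 8.32) and 7.77 to 8.596 in females (median 8.16). With this level as a covariate, chosen after the values were seen, 5 of the 10 genes passed for sex. The part of the other cell types in the sex differences was not tested.

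**Figure D4:**
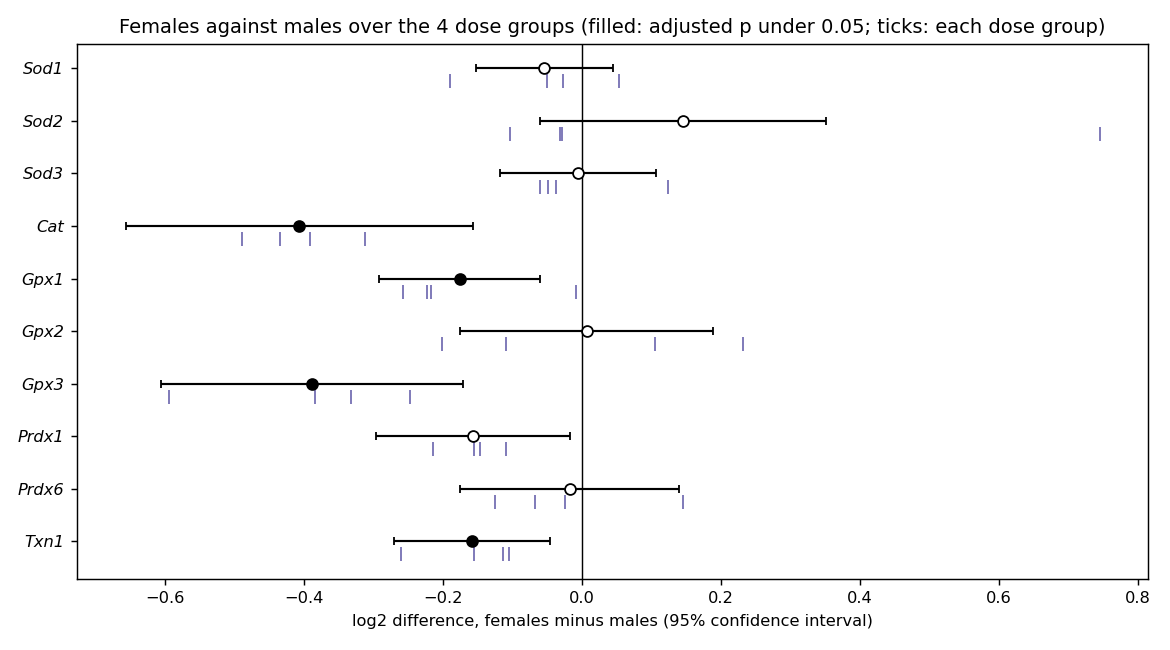
Log2 difference between 12 females and 12 males for each gene (horizontal axis), as circles with 95% confidence intervals from limma; filled circles have an adjusted p-value under 0.05, and vertical ticks are the difference within each of the 4 dose groups. The 4 filled circles (Cat, Gpx1, Gpx3 and Txn1) lie below 0, and the tick of Sod2 at 0.75 is the 1500 ppm group.

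In the related lists the directions for sex were mixed. Of the other peroxidases Gpx8, of the endoplasmic reticulum, was higher in females by 0.34 and Prdx5 was lower by 0.21. The cystine importer Slc7a11 was higher in females by 0.40, Gclc, the catalytic subunit of glutamate-cysteine ligase, by 0.35, and Ggt1 by 0.32. No gene of the glutathione list passed as lower in females. In the thioredoxin list Msra, Txnrd2 and Txnrd3 were lower in females, and among NRF2 and its targets Hmox1, Keap1 and Maf were. In the list of oxidant-producing enzymes Ncf1 was higher in females by 0.23 and Cyba was lower by 0.24. All of these passed at an adjusted limma p-value under 0.05, as did 24.9% of all genes, and they were named after their values were seen. The signals of Slc7a11 (mean -5.55 in males and -5.15 in females) and Txnrd3 (-4.15 and -4.59) were dim. Whether the sex differences of these related genes held under the alternative settings was not tested.

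The correlations between members ran in both directions. After the mean of each dose and sex group was removed, the correlation across the 24 arrays was above 0 for 28 of the 45 pairs of members, with a median Pearson r of 0.10. The values of a rat share 1 array and its scaling, and pairs of other genes were not compared, so these correlations are descriptions. The highest was between Gpx1 and Txn1 (r = 0.74), followed by Sod1 and Txn1 (r = 0.57). The lowest was between Sod1 and Gpx3 (r = -0.43). By the same measure the genes most like each member, out of 12489 named genes, were Aif1 and Zfp422 for Sod1, Dbnl and Hemk1 for Sod2, and Copa and Zswim4 for Sod3. They were Skap2 and Tmem127 for Cat, Naa38 and Tmem256 for Gpx1, Or11g26b and Chordc1 for Gpx2, and Mtmr10 and Dctn1 for Gpx3. For the peroxiredoxins and thioredoxin they were Atf1 and Rpe for Prdx1, Sphk2 and Dusp29 for Prdx6, and Cadm1 and Mmgt1 for Txn1. The likeness was highest for Prdx1 and Atf1 (r = 0.93) and lowest for Gpx2, whose closest gene reached r = 0.74.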

How the data were processed

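Per the file headers, the spots were read with Agilent Feature Extraction 11.5.1.1. The deposited intensities are its processed signals, from which each array's background and spatial trend had been removed, with no scaling from array to array. The authors' series table repeats these intensities for nearly all probes. The deposited flags (other columns) mark outlier spots, saturation and signals well above background.

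Values are log2 means over a probe's spots, without control or outlier spots, minus the log2 of the array's 75th percentile. Accessions named 18355 of 30367 probes (60.4%) through a RefSeq gene table of GRCr8, used for names only. A probe was kept if at least 5 of 6 arrays in any group showed it well above background, and a gene with several was represented by its brightest. Dose, trend, sex, and the sex difference of the dose effect were tested on all 24 arrays with limma 3.58.1 (lmFit and eBayes) in R 4.3.3, with Benjamini-Hochberg adjustment over all 21255 genes and unnamed probes. The script was tested on simulated data. Figures were drawn with matplotlib 3.10.9.

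The named genes were all members, genes of the related lists called at any dose, and the 2 named genes most like each member; others are marked as named after their values were seen. The members and lists were chosen with earlier results of these data known. Alternatives were normexp (offset 50) on median spot signals, quantile normalization, the array median, the deposited table unscaled, other filters and probe rules, array weights, slide blocks, sex as a covariate, control with 1 dose only, the methods' t-test and leaving out each rat.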

Additional observations from a re-analysis of the deposited data

Results flagged for a closer look

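The Sod2 change at 1500 ppm differed between the sexes by 0.849 (log2, female change minus male change; adjusted limma p-value 0.0172), the only member for which the test of this difference passed. Of the 40 sets of 6 values (10 genes in 4 groups), 4 held 1 rat far from the others by Dixon's ratio, the gap to the nearest rat divided by the range of the group; chance gives about 1 in 20 sets. Sod3 was low in control rat 21 (3.16, next 3.29; ratio 0.721). Gpx2 was high in 600 ppm rat 8 (5.14, next 4.71; ratio 0.687). Gpx3 was low in 1500 ppm rat 36 (1.15, next 1.82; ratio 0.738). Prdx1 was low in 600 ppm rat 26 (1.84, next 2.22; ratio 0.651).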

How the results depend on the processing

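The number of members called at each dose, with a trend, or with a sex difference of the dose effect at 600 or 1000 ppm was 0 under every alternative run, and no called result reversed. At 1500 ppm the count of members whose dose effect differed between the sexes, 1 (Sod2), became 0 with normexp background correction, the deposited table without scaling, the slide as a fixed block, the slide as a random block, and the heart muscle markers as a covariate; leaving out 1 rat gave 0 to 1, with 0 only without control rat 23. The count of members differing between males and females, 4, became 2 with normexp background correction and 1 with the slide as a random block. It was 3 with quantile normalization, which lost Txn1, and 5 with scaling to the array median and with the erythroid covariate, which each added Prdx1; leaving out 1 rat gave 3 to 5. The cause was not tested. The heart and erythroid covariates and the other Gpx2 probe were chosen after seeing the data. Of 473 values of dose differences under settings other than leaving out a rat, 438 kept within the spread or on the same side, and 35 moved, among them Prdx1 at 600 ppm within the female slide. No paired analysis was possible because the numbers in the labels are animal numbers that no 2 groups share. A fixed slide block gives no sex difference, since each slide held 1 sex. Precision is set by how many arrays each group has and by the spread between rats. The main dose and trend tests had no covariate, so differences between males and females are part of that spread. With sex as a covariate the SE of Prdx1 at 600 ppm was 0.094, against 0.104 without it. That of Gpx2 at 1500 ppm was 0.124, against 0.122. With 6 arrays in every group, the SE of a dose difference ran from 0.069 for Sod1 to 0.207 for Cat. The widest intervals were those of Cat and Gpx3.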
